A study of Mus musculus with 6 samples.

Results

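The genes described here encode the core of cellular iron handling: the ferritin subunits Fth1 and Ftl1, the transferrin receptor Tfrc, the iron transporter Slc11a2, the iron exporter Slc40a1 (ferroportin), the ferritin receptor of autophagy Ncoa4, and the iron regulatory proteins Aco1 (IRP1) and Ireb2 (IRP2). They were chosen by name, with earlier results of these data known, and are 8 of the 32285 genes in each deposited table; each was followed in cells with at least 500 detected genes, which left 25154 of 26808 barcodes. The cells came from organoids of mouse esophageal epithelium, a stratified squamous tissue in which basal cells divide and their daughters flatten and keratinise on the way to the surface. The study asked whether the autophagic vesicle content of the basal cell that founds an organoid is followed by differences in the organoid.

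Both groups were founded by esophageal epithelial cells of C57BL6 mice sorted for integrin-b1, which marks the basal layer, and against DAPI, a stain of dead cells. The founders were split by Cyto-ID, a dye that stains autophagic vesicles, into Cyto-ID Low and Cyto-ID High, and each group gave 3 libraries, labelled F2, M3 and F6; values below follow that order. Organoids grew for 15 days in Matrigel, in a medium with N2 and B27 supplements, EGF, conditioned medium with Noggin and R-spondin, N-acetyl-L-cysteine and the kinase inhibitor Y27632. N2 and B27 are known to contain transferrin, but its iron content in this medium is not given in the sources used here. Cyto-ID was read in the founders and not in the sequenced cells, and dead cells were depleted before droplet 3′ sequencing libraries were prepared, in which unique molecular identifiers (UMIs) mark each captured transcript. The labels do not say whether replicates came from separate animals, so p-values measure the spread between these libraries, which may be technical.

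Cells store iron inside a hollow shell of ferritin heavy chain (Fth1), which oxidises iron, and light chain (Ftl1), which helps it mineralise. Iron enters on transferrin through Tfrc, leaves the endosome through Slc11a2 and leaves the cell through Slc40a1. When iron is scarce, Ncoa4 carries ferritin to autophagosomes for breakdown, a process called ferritinophagy, and Aco1 and Ireb2 bind hairpins called iron-responsive elements, which blocks translation of ferritin and protects the Tfrc mRNA from decay. The mRNA levels measured here therefore do not report ferritin protein or iron.

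The iron-responsive elements are shown because they set the members apart by how iron is known to act on them: at translation for a hairpin in the 5′ UTR and on the mRNA itself for hairpins in the 3′ UTR. Each line gives 27 bases of sense strand read from GRCm38 within GENCODE transcripts, and capitals mark the bulged C and the 6-base loop between the arms of the hairpin.
Fth1, 5′ UTR in exon 1, chr19:9982733-9982759 (+): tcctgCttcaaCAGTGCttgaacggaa
Ftl1, 5′ UTR in exon 1, chr7:45459780-45459806 (-): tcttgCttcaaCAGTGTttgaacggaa
Slc40a1, 5′ UTR in exon 1, chr1:45925466-45925492 (-): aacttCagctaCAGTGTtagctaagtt
Tfrc, 3′ UTR in exon 19, chr16:32631220-32631246 (+): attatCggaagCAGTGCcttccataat
Tfrc, 3′ UTR in exon 19, chr16:32631599-32631625 (+): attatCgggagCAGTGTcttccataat
Tfrc, 3′ UTR in exon 19, chr16:32631664-32631690 (+): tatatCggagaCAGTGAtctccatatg
Tfrc, 3′ UTR in exon 19, chr16:32631711-32631737 (+): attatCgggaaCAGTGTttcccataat
The search took a C, any 5 bases and the loop CAGTGN, with all 5 bases on each side of the loop paired, on the sense strand only. The same letters and pairing occurred in the 5′ UTR of 28 of 20874 genes (0.134%) and in the 3′ UTR of 127 of 21665 genes (0.586%). No match was found in the UTRs of Slc11a2, Ncoa4, Ireb2 or Aco1, which says only that these letters are not there. These hairpins lie in parts of the mRNA that a 3′ count does not separate, so they are given as context for the levels.

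Libraries held between 8457489 and 48957523 UMIs, with medians of 1940.5 to 10038 UMIs per kept cell, and precision differed with them. The Cyto-ID High F6 library was the shallowest per cell and Cyto-ID High F2 the deepest. Over all kept cells, 3921021 UMIs belonged to Fth1 and 330548 to Ftl1, while Ncoa4 had 3674, Tfrc 2743, Slc11a2 2201, Ireb2 2113, Aco1 1749 and Slc40a1 184. Levels are given as CPM (UMIs per 1000000 UMIs of the cell), averaged over the cells of a library, and since 3′ counts do not allow levels of different genes to be ranked with certainty, each gene is compared with itself. Clusters of cells were named from markers without the use of iron genes: clusters 0, 5 and 6 were basal-like, 4 and 8 proliferating-like, 1 and 7 suprabasal-like, 3 and 9 superficial-like, and cluster 2, led by Krt12 (3008 cells), stayed unnamed. Cluster 9 held 337 shallow cells led by the interferon-induced Ifit3b and Ifit1bl1. Markers of cells other than epithelium were low: summed over each list, immune markers reached at most 0.196 CPM, erythroid markers 0.721 CPM and fibroblast markers 4.95 CPM, and the macrophage markers C1qa, C1qb, Adgre1 and Marco were at 0 in all 6 libraries. Krt18 led the columnar epithelium markers, which summed to between 102 and 662 CPM. Libraries shared between 0 and 8 cell barcodes per pair.

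Fth1 was the iron gene that changed most with layer. It lies at chr19:9980600-9985111. In basal-like cells its mean level was 3112, 3016 and 2198 CPM in Cyto-ID Low and 2469, 4686 and 1811 CPM in Cyto-ID High. Proliferating-like cells were in the same range, at 1957 to 4439 CPM. In suprabasal-like cells it was 12019.5, 9326 and 8699 CPM in Cyto-ID Low, and 5958, 10511 and 3811 CPM in Cyto-ID High. In superficial-like cells it reached 139651, 149750 and 115021 CPM in Cyto-ID Low, and 117568, 138639 and 51378 CPM in Cyto-ID High. The mean of every library was thus higher in suprabasal-like than in basal-like cells and higher again in superficial-like cells, and the lowest superficial-like mean was above the highest suprabasal-like mean. Within the suprabasal-like class, cluster 1 was at 6000.4 to 16912 CPM and cluster 7 at 1698 to 5806 CPM, which was above the basal-like mean in 4 of 6 libraries; cluster 7 held 46.3% to 57.6% of the class in Cyto-ID High and 7.3% to 20.5% in Cyto-ID Low. The superficial-like level was between 28.4 and 52.3 times the basal-like level of the same library, with a median of 46.2. Cyto-ID High F6 had the lowest superficial-like level, and its superficial-like cells had a median depth of 1774 UMIs.

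**Figure D1:**
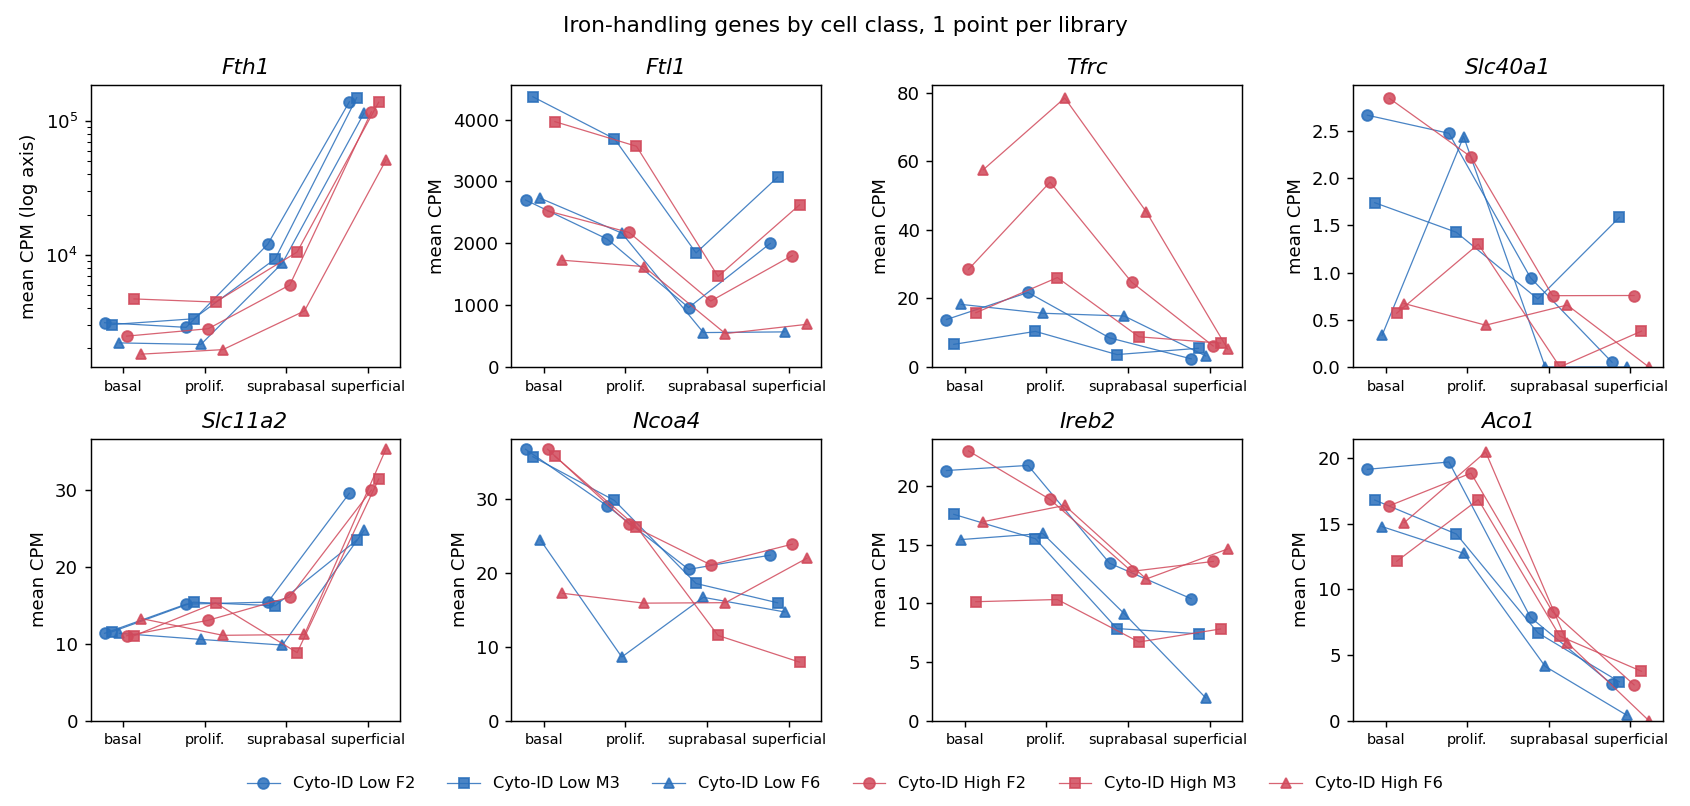
Mean CPM (vertical axis; log axis for Fth1, linear from 0 for the others) of the 8 genes in the 4 named classes from basal-like to superficial-like cells (horizontal axis), with 1 point per library, blue for Cyto-ID Low, red for Cyto-ID High, and lines joining the points of a library. Fth1 climbs in all 6 libraries to between 51378 and 149750 CPM in superficial-like cells, Aco1 falls, and Slc11a2 is highest in superficial-like cells; these are plain CPM values, without scaling factors.

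In single cells, the share of UMIs taken by Fth1 spread over orders of magnitude. The median share in basal-like cells lay between 0.163% and 0.407% over the libraries, in suprabasal-like cells between 0.220% and 0.631%, and in superficial-like cells between 3.16% and 10.0%. The highest share was 63.2% of a cell's UMIs. Fth1 exceeded 5% of UMIs in 2083 cells, of which 1981 (95.1%) were superficial-like, 81 suprabasal-like and 21 of other classes. It exceeded 20% in 726 cells, of which 720 were superficial-like. Superficial-like cells were 4.13% to 23.0% of the cells of a library and held between 47.1% and 88.9% of its Fth1 UMIs. The Fth1 level of a whole library, which ran from 4338 CPM in Cyto-ID High F6 to 36061 CPM in Cyto-ID Low F2, thus depends on both the share of superficial-like cells and their level. In Cyto-ID High F6 both were the lowest of the 6, at 4.13% of cells and 51378 CPM, whereas Cyto-ID Low F2 had the highest share and only the second highest level.

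**Figure D2:**
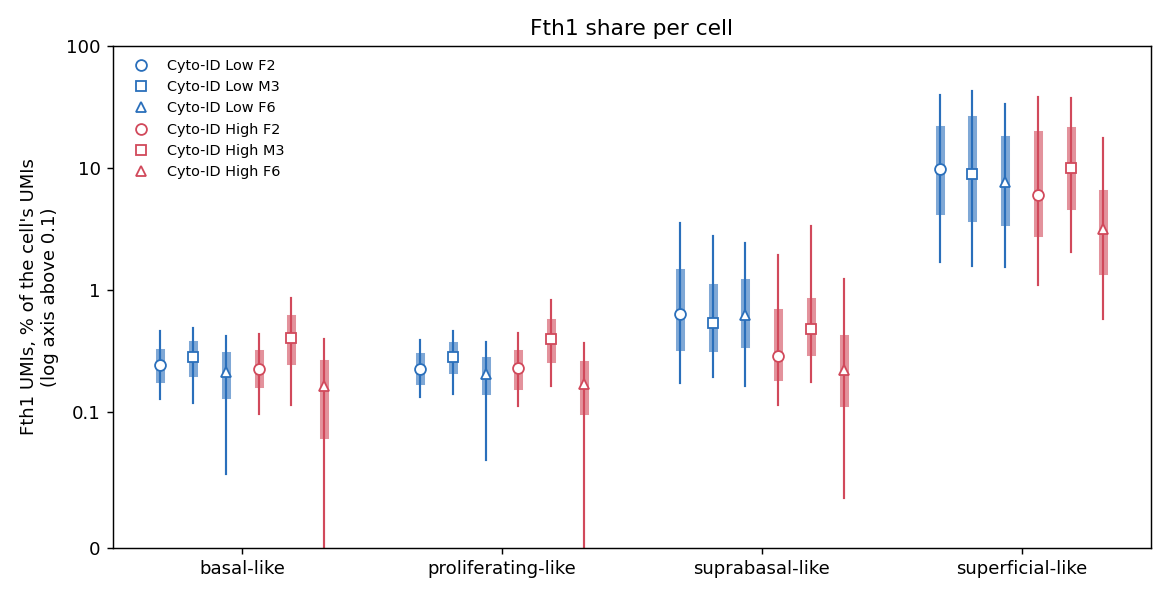
Share of each cell's UMIs that was Fth1 (vertical axis, %, log scale above 0.1 and linear below) by class, with 1 symbol per library at the median, a thick bar from the 25th to the 75th percentile and a thin line from the 5th to the 95th over cells; blue is Cyto-ID Low and red Cyto-ID High. Medians are below 0.5% in basal-like and proliferating-like cells and between 3.16% and 10.0% in superficial-like cells.

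The superficial-like cells were not uniform. At a finer clustering, 1 sub-cluster of 745 cells carried a mean Fth1 share of 28.4%, with the 5th and 95th percentiles of its cells at 8.38% and 47.2%. Its leading genes were Tspan1, Fth1, Duoxa2, Clca3b and Sprr2f, with Cnfn and Cdsn, genes of the cornified envelope and its junctions, among the leading 10. Another sub-cluster of 1898 cells, led by 2300002M23Rik, Muc4, Mal and Psca, had a mean share of 8.17%. The first was above the other in all 6 libraries, at 15.8% to 34.2% against 3.76% to 10.1%. Its cells had a median of 962 detected genes against 1829, and a median of 4231 UMIs that were not Fth1 against 6634.5, so fewer other transcripts moved with the higher Fth1 share, and their part in it was not tested. The shallow cluster led by interferon-induced genes had a mean Fth1 share of 6.60%.

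Ftl1 did not follow Fth1. The gene lies at chr7:45457944-45459886. In basal-like cells it measured 2701, 4370.2 and 2729 CPM in Cyto-ID Low and 2524, 3968 and 1726 CPM in Cyto-ID High. In suprabasal-like cells it was lower in every library, at 960.3, 1844 and 556 CPM in Cyto-ID Low and at 1065, 1464 and 539.5 CPM in Cyto-ID High. In superficial-like cells it was 1999, 3069 and 567 CPM in Cyto-ID Low, and 1803, 2623 and 689.6 CPM in Cyto-ID High, above the suprabasal-like level in all 6. The M3 libraries had the highest Ftl1 in each class of both groups and the F6 libraries had the lowest in suprabasal-like and superficial-like cells. The number of Fth1 UMIs per Ftl1 UMI was between 0.719 and 1.37 in basal-like cells (median 1.05), 5.93 to 15.7 in suprabasal-like cells and 61.5 to 220.3 in superficial-like cells (median 79.4). These ratios are of UMIs summed over a library's cells of the class, so other genes do not enter them and deeper cells weigh more. Processed copies of ferritin genes are known in the genome; the row Ftl1-ps1 held 2.37 to 10.9 CPM over all cells against 1300.05 to 3363 CPM of Ftl1, and how reads shared by such copies were counted is not given in the sources used here, so the counting of both ferritins is uncertain.

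A few genes take a large share of the UMIs in superficial-like cells, among them Fth1 and Psca (44902 to 133884 CPM), which lowers the CPM of other genes there, and the layers were also compared after scaling with trimmed means (TMM) as log2(CPM + 1). No test was made between layers, since clusters were drawn from the same cells. On the scaled values, 2 of the 8 genes, Fth1 and Slc11a2, were higher in superficial-like than in basal-like cells in all 6 libraries and 1, Aco1, was lower in all 6, against 23.3% of all 12213 genes higher and 29.7% lower. On plain CPM the same 2 were higher in all 6 libraries and 5 were lower, against 11.6% and 50.1% of all genes. The median difference was 6.28 for Fth1, which ranked 31st of 12213 genes, 1.90 for Slc11a2 and -1.67 for Aco1. Ftl1 was higher in 4 of 6 libraries on the scaled values (median difference 0.14) and in 0 of 6 on plain CPM (median difference -0.55), and Ncoa4 was higher in 3 and in 1 of 6 (median differences 0.05 and -0.69), so no direction can be given for Ftl1 or Ncoa4 between these layers. Suprabasal-like against basal-like cells gave 2 genes higher in 6 of 6 libraries, Fth1 (1.92) and Slc11a2 (0.52), and 3 lower in all 6, Ftl1 (-0.99), Aco1 (-0.79) and Ireb2 (-0.24), against 28.1% higher and 22.3% lower of all 12103 genes. On plain CPM, 1 gene was higher in all 6 libraries and 6 were lower, against 13.4% and 45.7% of all genes, and Slc11a2 was higher in only 3 of 6. Proliferating-like cells had lower Ftl1 (-0.24) and lower Ncoa4 (-0.40) than basal-like cells in all 6 libraries, against 14.1% of all 12238 genes.

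Free RNA from broken cells can carry an abundant transcript into droplets of other cells. The basal-like Fth1 level was 1.91% to 3.52% of the superficial-like level of the same library. Only superficial markers at 100 CPM or more in superficial-like cells were used for a limit. The lowest of these in each library, Sprr2f, Psca or Duoxa2, was at 0.117% to 0.461% of its superficial-like level in basal-like cells. Other markers were higher: in Cyto-ID Low M3, Cnfn was at 2.34% and Sprr1a at 2.43%, against 2.01% for Fth1. Markers below 100 CPM in the superficial-like cells of that library were at 3.68% (Sprr3), 3.84% (Crnn), 18.6% (Ivl), 111% (Lor) and 0% (Flg). If free RNA held Fth1 and the lowest marker used in the ratio of superficial-like cells, it could have given at most 3.31% to 21.3% of the basal-like Fth1. That ratio was not measured in free RNA, and the part of free RNA was not tested. In the other direction, basal markers at 100 CPM or more in basal-like cells were used. The lowest in superficial-like cells, Itgb4 or Col17a1, was at 1.4% to 8.79% of its basal-like level. Tfrc was at 8.95% to 82.6%, Ftl1 at 20.8% to 74% and Aco1 at 0% to 30.9%.

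Among the uptake genes, Tfrc, which binds iron-loaded transferrin at the cell surface, was higher in proliferating-like than in basal-like cells in 5 of 6 libraries. The gene lies at chr16:32608896-32632794. In proliferating-like cells it measured 21.7, 10.4 and 15.7 CPM in Cyto-ID Low and 53.9, 26.1 and 78.4 CPM in Cyto-ID High. Basal-like cells had 13.8, 6.59 and 18.2 CPM in Cyto-ID Low and 28.4, 15.8 and 57.5 CPM in Cyto-ID High, so the exception was Cyto-ID Low F6, where the unnamed cluster 2 was higher than both, at 33.9 CPM from 24 UMIs. Superficial-like cells had between 2.37 and 6.95 CPM, from only 3 to 28 UMIs per library. Within the basal-like class, cluster 6, led by Igfbp2, Adh7 and the metallothionein Mt3, had 30.3, 12.5 and 2.86 CPM in Cyto-ID Low and 59.0, 26.2 and 84.97 CPM in Cyto-ID High; it was above the proliferating-like level in 5 of 6 libraries, and the 2.86 CPM rest on 1 UMI in 73 cells. Clusters 0 and 5 had between 4.75 and 20.5 CPM in Cyto-ID Low and between 9.28 and 46.7 CPM in Cyto-ID High. Cluster 7, the suprabasal-like cluster led by Calm4 and Sprr1b, reached 68.5 CPM in Cyto-ID High F6, against 21.1 CPM in cluster 1 of that library.

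Slc11a2 (DMT1), which moves ferrous iron out of the endosome, lies at chr15:100387898-100424209. In superficial-like cells it was 29.6, 23.5 and 24.7 CPM in Cyto-ID Low and 30, 31.4 and 35.4 CPM in Cyto-ID High. Basal-like cells had between 11.04 and 13.3 CPM in all 6, with no overlap between the classes. The superficial-like level was 2.03 to 2.85 times the basal-like level, in CPM and so with Fth1 in the total. In superficial-like cells the 3 Cyto-ID High libraries lay above all 3 Cyto-ID Low libraries on plain CPM, with ratios within pairs of 1.01 to 1.43, while the scaled difference of 0.17 ± 0.304 did not pass (limma, adjusted p = 0.997). In cluster 3, the larger superficial-like cluster, the groups overlapped, and the F2 ratio was 0.917. In basal-like cluster 5 all 3 Cyto-ID High libraries lay below all 3 Cyto-ID Low libraries on plain CPM, at ratios of 0.837 to 0.955. The share of all genes that separated the groups so was not counted.

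Slc40a1, known as the cell's only iron exporter, lies at chr1:45908070-45926532 and was close to absent. It measured at most 2.85 CPM in any class of any library, and it was at 0 in the superficial-like cells of both F6 libraries, where a count of 0 allows up to 1.75 CPM (Cyto-ID Low F6) or 7.84 CPM (Cyto-ID High F6; 3 UMIs of the class total, counting error only). A class of a library held between 0 and 48 of its UMIs, so its counts of libraries higher or lower between layers rest on few UMIs and no fold is given for it.

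Of the iron regulatory proteins, Aco1 was lower in both upper layers than in basal-like cells in all 6 libraries on both scales. Ireb2 was so on plain CPM, and on the scaled values in suprabasal-like cells only. Aco1 (chr4:40143265-40199009), which is a cytosolic aconitase when it carries an iron-sulfur cluster, measured 19.1, 16.8 and 14.8 CPM in basal-like cells of Cyto-ID Low and 16.4, 12.1 and 15.1 CPM in Cyto-ID High. In suprabasal-like cells it was 4.13 to 8.29 CPM and in superficial-like cells 2.76, 2.95 and 0.405 CPM in Cyto-ID Low and 2.72, 3.75 and 0 CPM in Cyto-ID High, so the basal-like libraries did not overlap with either. The count of 0 for Aco1 allows up to 7.84 CPM. Ireb2 (chr9:54862658-54912534), which is degraded when iron is plentiful, was at 10.1 to 23.0 CPM in basal-like cells and at 6.71 to 13.4 CPM in suprabasal-like cells. In superficial-like cells Ireb2 was 10.4, 7.41 and 1.93 CPM in Cyto-ID Low and 13.6, 7.82 and 14.7 CPM in Cyto-ID High. On the scaled values Ireb2 was lower in superficial-like than in basal-like cells in 5 of 6 libraries (median difference -0.14, range -1.80 to 0.35). Both genes rest on few UMIs per class, and the lowest values belong to the shallow F6 libraries.

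Ncoa4 (chr14:32159879-32179855), which binds Fth1 and delivers ferritin to autophagosomes, was higher in basal-like than in superficial-like cells in 5 of 6 libraries on the CPM scale, the exception being Cyto-ID High F6. It measured 36.8, 35.8 and 24.5 CPM there in Cyto-ID Low, and 36.8, 35.8 and 17.3 CPM in Cyto-ID High, so the pairs F2 and M3 had nearly equal values. Suprabasal-like cells had 11.5 to 21.1 CPM, and superficial-like cells 22.4, 15.97 and 14.7 CPM in Cyto-ID Low and 23.9, 7.92 and 22.02 CPM in Cyto-ID High. In basal-like cluster 6 Cyto-ID Low had 76.9, 54.5 and 57.3 CPM, the last from 73 cells, and Cyto-ID High 50.2, 41.3 and 15.9 CPM. The groups did not overlap in that cluster on plain CPM, and the share of all genes that did the same was not counted. This is given as a description, because the cluster was singled out after its values were seen. It held 33.5% to 37.1% of basal-like cells in Cyto-ID High against 6.8% to 12.6% in Cyto-ID Low. In the proliferating-like cluster 8 the direction was the opposite, with Ncoa4 higher in Cyto-ID High in 3 of 3 pairs, at ratios of 1.02, 1.02 and 2.87.

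The other genes of ferritinophagy and autophagosome formation were described from a list of 12, all measured, and 6 were higher and 2 lower in superficial-like than in basal-like cells in all 6 libraries, against 23.3% and 29.7% of all genes, with a median difference of 0.673 (log2, scaled) against -0.129 over all genes. On plain CPM, 5 were higher and 4 lower, against 11.6% and 50.1% of all genes, with a median of 0.039 against -0.734. Sqstm1, a cargo receptor of selective autophagy, led with a median difference of 2.89 (range 2.43 to 3.18), at a mean of 324 CPM in superficial-like and 71 CPM in basal-like cells. Gabarapl2, an autophagosome membrane protein, followed at 2.38 (1.71 to 2.60). In proliferating-like against basal-like cells, 0 of the 12 were higher and 8 lower in all 6 libraries on either scale, against 14.2% of all genes higher and 14.1% lower on the scaled values and 15.7% and 11.9% on plain CPM.

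The other lists are described on the scaled values, beside 23.3% of all genes higher and 29.7% lower (11.6% and 50.1% on plain CPM), and the genes named from them had the same direction in 6 of 6 libraries on plain CPM. Of 10 measured genes of iron uptake and the transferrin cycle, 5 were higher and 2 lower in superficial-like cells in all 6 libraries; among these, the metalloreductase Steap4 had a median difference of 2.98 (1.298 to 4.32) and its relative Steap3, which reduces iron in the endosome, -2.42 (-3.73 to -1.07). Both measured ferroxidases of iron export were lower in all 6, Cp by a median of -2.12 (-3.11 to -1.81) and Heph by -1.89 (-3.56 to -1.39). Of 6 genes of iron sensing, 2 were higher and 2 lower; Bmp6, a ligand known to induce hepcidin, differed by 2.35 and Epas1, a hypoxia-inducible factor, by -1.64. Of 5 iron chaperones and other ferritins, 0 were higher and 3 lower, among them Bola2 (-0.87) and Glrx3 (-0.81), which chaperone iron-sulfur clusters. Heme genes were mostly without a shared direction, with 4 of 15 higher and 1 lower; the biliverdin reductase Blvrb differed by 1.99 and the heme exporter Flvcr1 by -1.64. Of 14 genes of mitochondrial iron and iron-sulfur clusters, 2 were higher and 5 lower, among them the chaperone Hspa9 (-1.45). On plain CPM the counts higher and lower were 2 and 2 for uptake, 0 and 2 for export, 1 and 3 for sensing, 0 and 5 for chaperones, 3 and 8 for heme and 0 and 9 for mitochondrial iron.

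**Figure D3:**
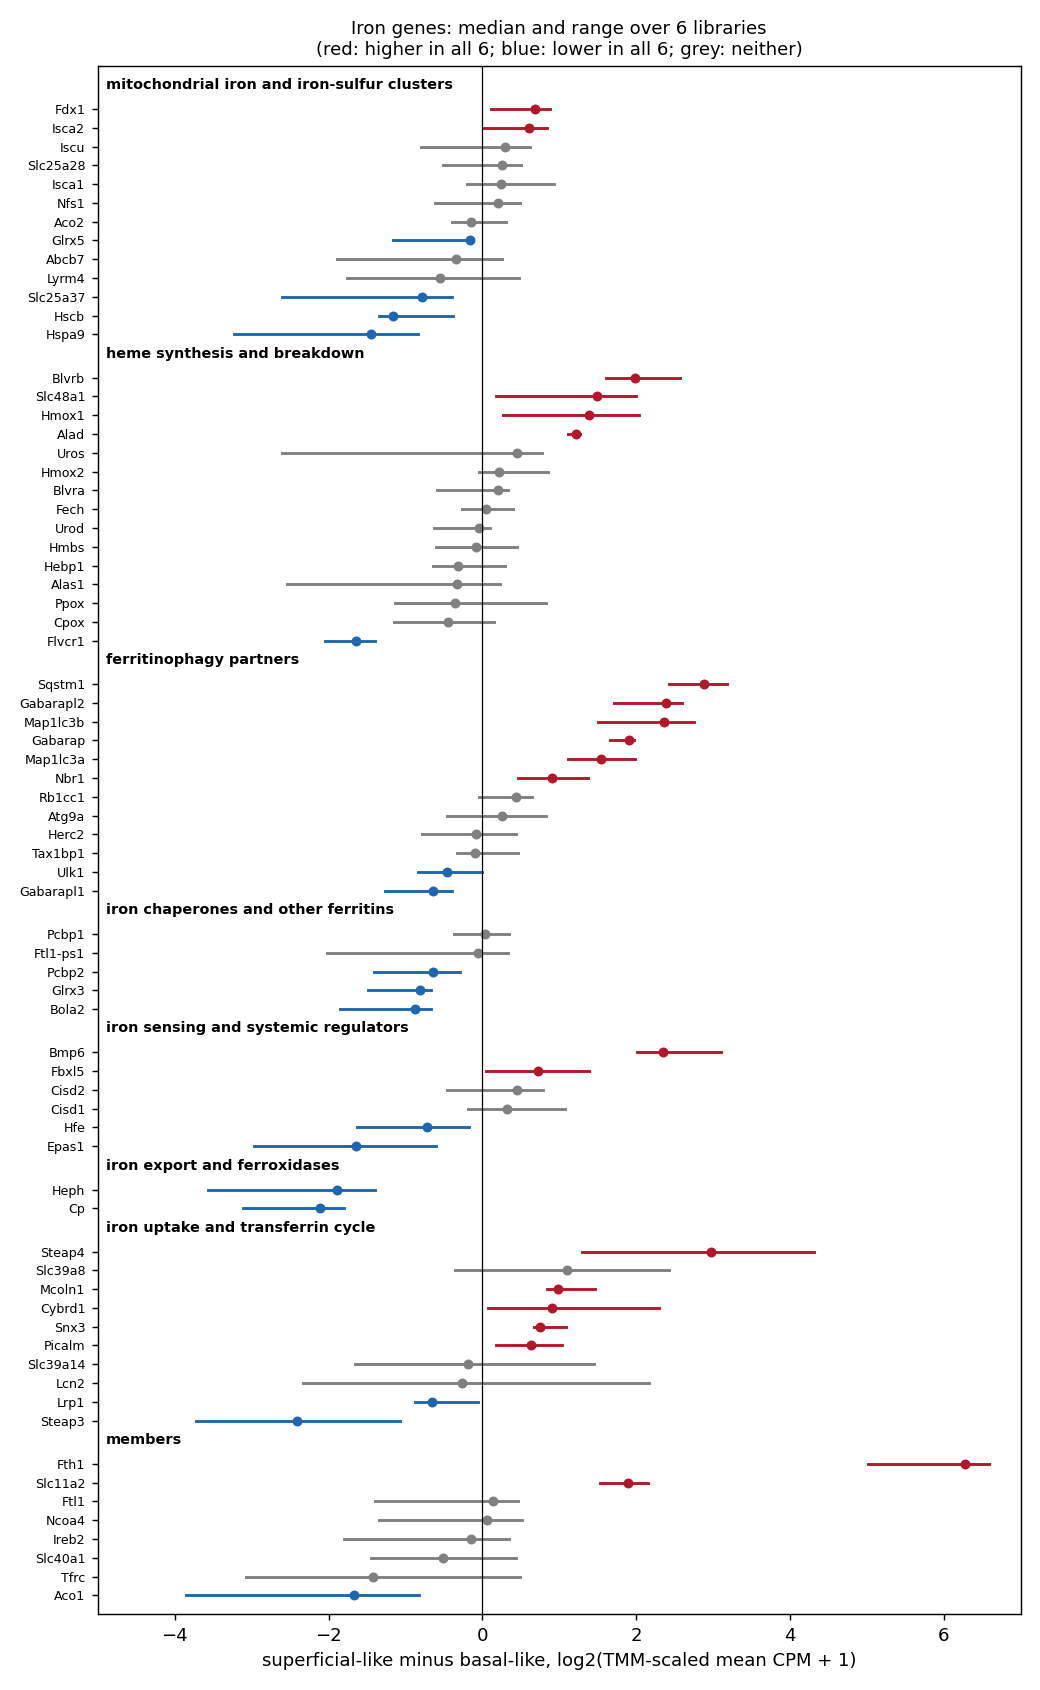
Difference between superficial-like and basal-like cells (horizontal axis, log2 of TMM-scaled mean CPM + 1) for the 8 genes and the other iron genes measured except 1 of the mitochondrial list, grouped by list, with a point at the median and a line over the range of 6 libraries. Red marks genes higher in all 6 libraries and blue genes lower in all 6; Fth1 stands farthest to the right at 6.28, and on plain CPM the values would lie lower, so that Ftl1 would be lower in all 6 libraries.

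In cells called G2M, Ftl1 was lower than in G1. Phases were called in 13498 basal-like and proliferating-like cells from cycle genes that include none of the 8, with 7348 in G1, 3912 in S and 2238 in G2M, and 54.9% of these cells lay within 0.05 of a boundary of the score. Layer markers moved with phase: in all 6 libraries the suprabasal keratin Krt13 was higher in G2M (451 to 1473 CPM) than in G1 (284 to 1181 CPM), and the basal keratin Krt14 was lower (5178 to 13229 against 5745 to 18235 CPM); their part in the differences below was not tested. Ftl1 measured 2675, 4399 and 2759.5 CPM in G1 cells of Cyto-ID Low, and 2503, 4004 and 1721 CPM in those of Cyto-ID High. In G2M it was 2148, 3832 and 2138 CPM in Cyto-ID Low, and 2302, 3611 and 1659 CPM in Cyto-ID High, below G1 in 6 of 6 libraries. The difference was -0.28 ± 0.047 (log2, SE, n = 6 libraries; limma with the library as a block, adjusted p = 0.00057); with all kept cells, which mixes the layers into the phases, it was -0.038 and the call was lost (adjusted p = 0.713). It was the only 1 of 8 members called between these phases, against 17.2% of all 12281 genes called and 8.97% called lower in G2M. In S against G1 the Ftl1 difference was smaller, -0.085 ± 0.020 (limma, adjusted p = 0.0099), again the only 1 of 8, against 9.43% of 12259 genes called and 3.69% called lower in S. That call was lost without Cyto-ID Low F6 (-0.076, adjusted p = 0.0642) and with all genes tested (adjusted p = 0.0822), and with all kept cells, which mixes the layers into the phases, the difference was 0.094 (adjusted p = 0.0866).

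Fth1 differed by -0.14 ± 0.054 between G2M and G1 (limma, adjusted p = 0.091), and its CPM was lower in 4 of 6 libraries. Without Cyto-ID High F2 the difference was -0.203 and passed the threshold (adjusted p = 0.00284), as it did without the highest Scrublet scores (-0.202, adjusted p = 0.0178) and, at -1.226, with all kept cells, which mixes the layers into the phases (adjusted p = 2.33e-07). Tfrc measured 12.7, 7.68 and 19.1 CPM in G1 of Cyto-ID Low and 24.9, 7.14 and 12.1 CPM in G2M. In Cyto-ID High it measured 25.4, 14.3 and 49.3 CPM in G1 and 52.6, 26.4 and 66.6 CPM in G2M. It was thus higher in G2M in 3 of 3 Cyto-ID High and in 1 of 3 Cyto-ID Low libraries. The G2M values of Cyto-ID Low rest on 47, 25 and 3 UMIs, the last from 95 cells. Whether the groups differed in this was not tested. The Tfrc difference of 0.34 ± 0.20 between G2M and G1 did not pass (limma, adjusted p = 0.28), but it did without Cyto-ID Low F6 (0.561, adjusted p = 0.0107). In S against G1 the Tfrc difference was 0.31 ± 0.135 (limma, adjusted p = 0.176), and it passed without Cyto-ID Low F6 (0.441, adjusted p = 0.0251) and with all kept cells (0.327, adjusted p = 0.0339). Ncoa4 did not pass in G2M (-0.17 ± 0.126, limma, adjusted p = 0.40) or in S (-0.24 ± 0.114, adjusted p = 0.228); without Cyto-ID High F6 the S difference was -0.355 (adjusted p = 0.0428).

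**Figure D4:**
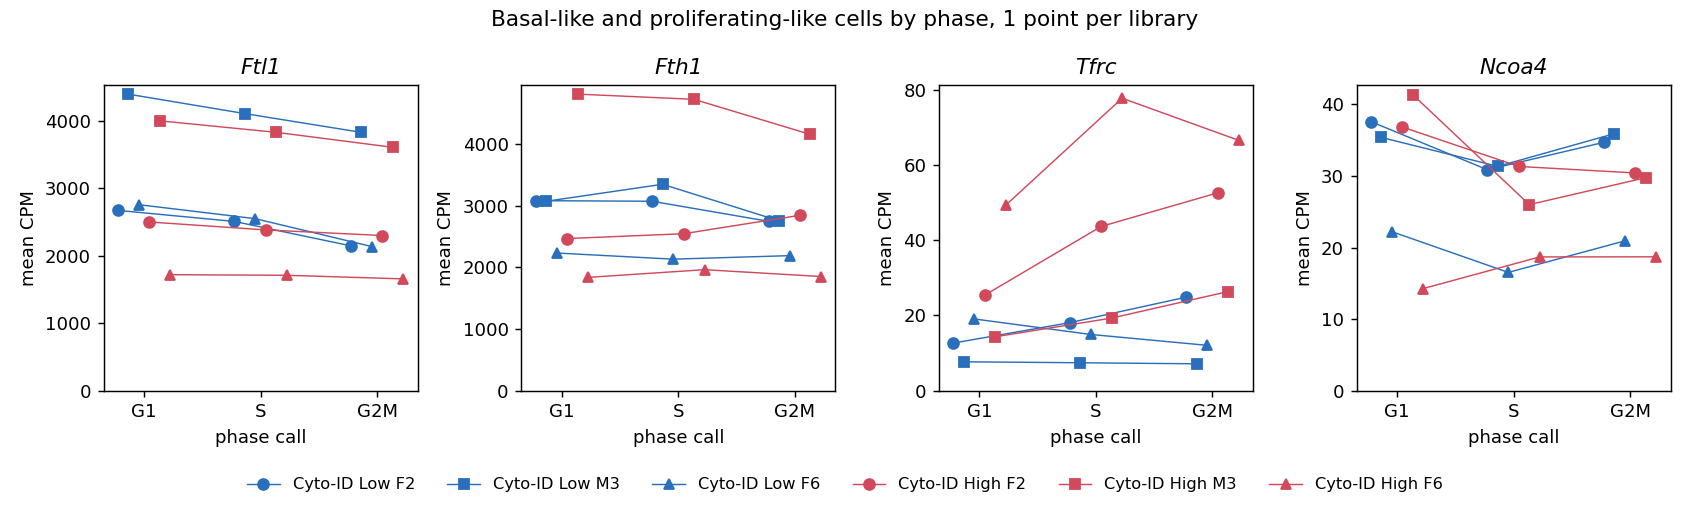
Mean CPM (vertical axis, from 0) of Ftl1, Fth1, Tfrc and Ncoa4 in basal-like and proliferating-like cells called G1, S and G2M (horizontal axis), 1 point per library joined by lines, blue for Cyto-ID Low and red for Cyto-ID High. Ftl1 is lower in G2M than in G1 in 6 of 6 libraries, while Tfrc is higher in all 3 Cyto-ID High libraries and in 1 of 3 Cyto-ID Low libraries. The Tfrc level of Cyto-ID Low F6 in G2M rests on 3 UMIs.

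Of the 12 partners of ferritinophagy, 4 fell and 0 rose in G2M, where 8.97% of all genes fell, and 5 fell and 0 rose in S, where 3.69% fell; the others did not pass. Map1lc3b, the membrane tag LC3B, fell by 0.50 ± 0.052 in G2M (limma, adjusted p = 5.75e-06) and by 0.23 in S. Gabarap fell by 0.36 ± 0.0423 and Map1lc3a by 0.39 ± 0.0516 in G2M, and by 0.19 and 0.22 in S. Gabarapl1 fell by 0.30 and Tax1bp1, a cargo receptor that works with Ncoa4, by 0.16 in S. Among uptake genes, 4 of 9 fell and 0 rose in G2M, against 8.97% of all genes lower: the siderophore binder Lcn2 fell by 1.25 ± 0.2115 and the heme-hemopexin receptor Lrp1 by 0.48. Lcn2 also fell by 1.31 ± 0.2821 and Lrp1 by 0.39 in S. The heme binding protein Hebp1 fell by 1.195 ± 0.1557 and Hscb, which assembles iron-sulfur clusters, by 0.47 in G2M, whereas the iron-sulfur protein Glrx5 rose by 0.34 ± 0.0733 in G2M and Cisd1 rose by 0.23 in S.

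Cyto-ID High and Low organoids differed in Tfrc in the same direction in 3 of 3 pairs over all cells, and over all cells, in basal-like and in suprabasal-like cells the difference passed the test with the replicate label as a block but not without it. Over all cells Tfrc measured 10.9, 6.2 and 17.2 CPM in Cyto-ID Low, and 27.1, 13.5 and 52.8 CPM in Cyto-ID High, so that each Cyto-ID High library was 2.17 to 3.06 times its Cyto-ID Low partner. The groups overlapped, since Cyto-ID High M3 was below Cyto-ID Low F6, and within both groups F6 was highest and M3 lowest. The difference was 1.35 ± 0.486 (log2, SE, n = 3 and 3; limma, adjusted p = 0.58 without a block and 0.0245 with it). In basal-like cells it was 1.39 ± 0.478 (adjusted p = 0.60; 0.0144 with the block), with ratios of 2.06 to 3.15 within pairs. In suprabasal-like cells it was 1.45 ± 0.562 (adjusted p = 0.33; 0.0124 with the block), from 8.48, 3.61 and 14.8 CPM in Cyto-ID Low and 24.7, 8.79 and 45.2 CPM in Cyto-ID High. In proliferating-like cells the 3 Cyto-ID High libraries lay above all 3 Cyto-ID Low libraries on plain CPM. How many of all genes separated the groups in this way was not counted. The scaled difference was 1.76 ± 0.397 (limma, adjusted p = 0.22, and 0.0739 with the block). It passed the threshold when Cyto-ID High M3 was left out (2.18, limma, adjusted p = 0.00927). In superficial-like cells the difference was 0.53 ± 0.465 (adjusted p = 0.997; 0.881 with the block).

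Without the block, 0 of the members tested were called in any of these comparisons with limma, against 0.120% of genes called over all cells, 0.232% in basal-like, 0.129% in proliferating-like, 0.328% in suprabasal-like and 0.0192% in superficial-like cells. Slc40a1 was too low to be tested in suprabasal-like and superficial-like cells, and the other members were tested in all 5. At an unadjusted p under 0.05, between 211 and 1376 genes passed in these 5 comparisons. With the block, Tfrc was the only member called over all cells, in basal-like and in suprabasal-like cells, against 0.601%, 1.07% and 3.87% of genes. Tfrc was chosen with these data in view, so its calls are a description and no independent evidence of a difference. The cluster make-up of the classes moved with the groups: cluster 6, where Tfrc was high, held 33.5% to 37.1% of basal-like cells in Cyto-ID High and 6.8% to 12.6% in Cyto-ID Low, and cluster 7 held 46.3% to 57.6% of suprabasal-like cells in Cyto-ID High and 7.3% to 20.5% in Cyto-ID Low. Within clusters, Tfrc in Cyto-ID High exceeded its Cyto-ID Low partner in 3 of 3 pairs in clusters 1, 3, 4, 5, 6, 7 and 8, and in 2 of 3 pairs in clusters 0 and 2. The share of all genes with 1 direction in 3 of 3 pairs was not counted. Cluster 3 lies in the superficial-like class, which held only 3 to 28 Tfrc UMIs per library. In cluster 1 the ratios within pairs were 1.28 to 1.39 and in cluster 4 they were 2.42 to 4.90. Proliferating-like cells were also 15.0% to 21.8% of Cyto-ID High and 9.41% to 12.1% of Cyto-ID Low libraries. The part of these shares in the level over all cells was not tested.

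**Figure D5:**
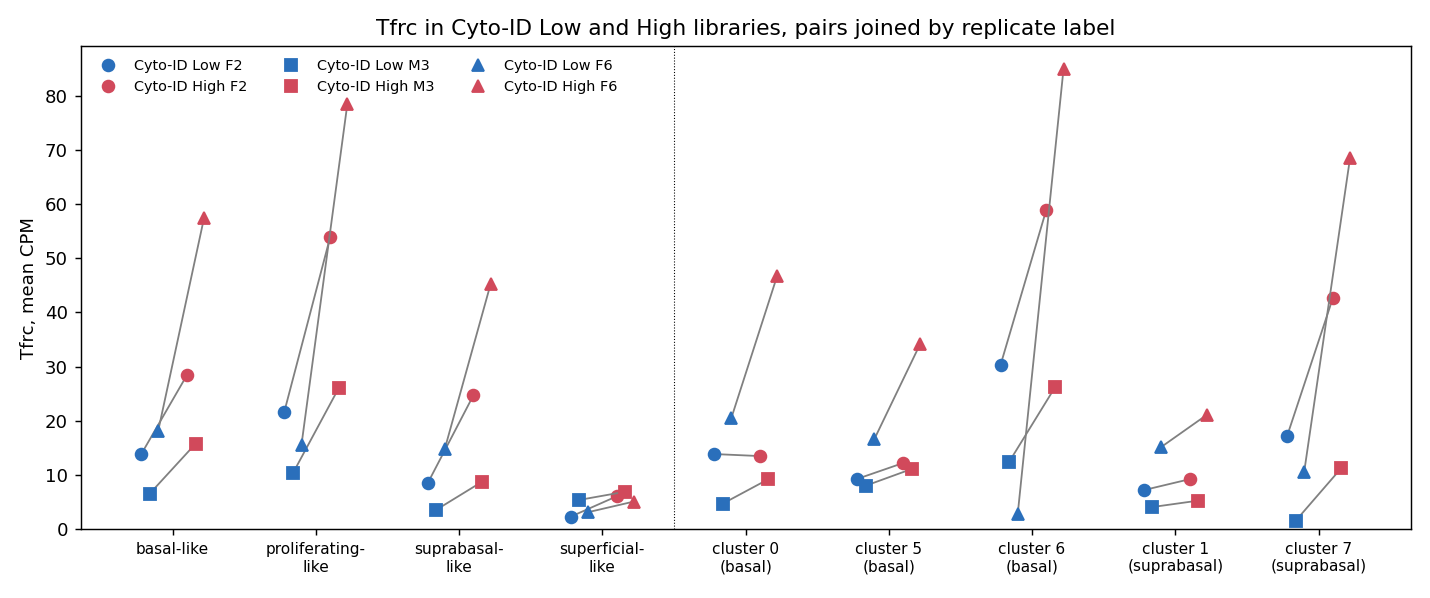
Tfrc level (vertical axis, mean CPM, from 0) in each Cyto-ID Low (blue) and Cyto-ID High (red) library, lines joining libraries of the same replicate label, for 4 classes on the left and 5 basal-like and suprabasal-like clusters on the right. Of the 9 panels, the Cyto-ID High library is higher in all 3 pairs in each except cluster 0, where it is higher in 2 of 3, and in proliferating-like cells the groups do not overlap. The share of all genes with these patterns was not counted.

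Ferritin showed no difference between the Cyto-ID groups that exceeded the spread between libraries. Fth1 differed by -0.91 ± 0.631 over all cells (limma, adjusted p = 0.73), by 0.16 ± 0.387 in basal-like cells (adjusted p = 0.95), by -0.57 ± 0.475 in suprabasal-like cells (adjusted p = 0.67) and by -0.66 ± 1.05 in superficial-like cells (adjusted p = 0.997). Ftl1 differed by -0.12 ± 0.41 over all cells (limma, adjusted p = 0.96). The sign of the basal-like Fth1 difference turned when Cyto-ID High M3, the library with the highest basal-like Fth1, was left out (-0.246). On plain CPM over all cells, Fth1 in Cyto-ID High was below its Cyto-ID Low partner in 3 of 3 pairs, by ratios of 0.232 to 0.993. The scaling factors were 1.045 for Cyto-ID Low M3 and 0.902 for Cyto-ID High M3, so on the scaled values the M3 pair was not below. In superficial-like cells Fth1 was below its partner in 3 of 3 pairs on plain CPM (0.447 to 0.926). There the sub-cluster with the highest Fth1 share was 27.9%, 19.6% and 13.1% (23 cells) of the superficial-like cells in the sub-clusters described above in Cyto-ID High. In Cyto-ID Low it was 28.4%, 24.7% and 25.5%. In the larger sub-cluster of superficial-like cells the M3 pair went the other way, at a mean Fth1 share of 10.1% in Cyto-ID High against 9.46%. On plain CPM, Fth1 was below its partner in 2 of 3 pairs of the other named classes. Ftl1 was below its partner on plain CPM in 3 of 3 pairs over all cells (0.781 to 0.962) and in basal-like cells (0.633 to 0.935). With the scaling factors, the M3 pair over all cells was not below for Ftl1 either. In basal-like cells the median of all genes on plain CPM was itself -0.158 (log2). Ftl1 there differed by -0.097, -0.139 and -0.660 in F2, M3 and F6. The Fth1 ratios over all cells stood beside shares of superficial-like cells of 14.4%, 10.1% and 4.13% in Cyto-ID High F2, M3 and F6 against 23.0%, 10.6% and 13.2% in Cyto-ID Low. Whether the group difference itself differed between superficial-like and basal-like cells was tested as an interaction, with -0.87 ± 0.44 for Fth1 (adjusted p = 0.89) and -0.86 ± 0.79 for Tfrc (adjusted p = 0.90); 0 of 12213 genes were called, with 628 at an unadjusted p under 0.05. None of the other iron genes on the lists was called between Cyto-ID groups by limma without the block.

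The genes whose pattern over the 24 means of library and class was most like each gene's were ranked among 6979 genes by Pearson correlation centred within libraries, as a description over means that share libraries and depth. For Fth1 they were Lpin2 and Trim15 (0.993), Chic2, Ier5 and Prss8 (0.991). For Ftl1 they were Arpc1b (0.882), Zfp36l2, Atpif1, Npepl1 and Dcxr. Among those most like Tfrc were Rtca (0.952), Utp18, Rbm10 and Exosc9, and among those most like Ncoa4 were Stat3 (0.854), Rybp, Ammecr1l and Mtmr3 (0.732).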

How the data were processed

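Droplet 3′ RNA libraries were made from organoids of 3 Cyto-ID Low and 3 Cyto-ID High founder populations. The authors deposited natural log values, ln(1 + 10000 × UMIs / total UMIs of the cell). No label names this scale: it was inferred from the numbers, of which 100% came back as whole UMIs within a tolerance of 0.001. Per the submitters' processing notes, Cell Ranger 6.0.0, Seurat 4 and the build mm10 (GRCm38) were used; no counting rule for shared reads is given in the sources used here. Cells with at least 500 detected genes were kept. The members and gene lists were chosen with earlier results of these data known.

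Kept cells were clustered in Seurat 5.3.0 (R 4.3.3) on 1987 variable genes, 13 iron genes having been left out of 2000, with 30 principal components, integration over libraries and Louvain resolution 0.5. Clusters were named by their best-scoring marker list (mean log2 ratio to the other cells) and left unnamed if no list scored above 0. Scrublet (scanpy 1.11.5) marked between 0 and 0.300% of cells, too few to rely on, so doublets were kept, and the top 5% by score were dropped only as an alternative. Phases were called in scanpy from 42 S and 52 G2M genes after cells were thinned to 1000 UMIs, with cells below that depth dropped.

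Mean CPM per library (at least 50 cells in the main fits) was divided by TMM factors (trims of 30% and 5%) and tested as log2(CPM + 1) with limma 3.58.1 (two-sided, mean-variance trend, genes reaching 1 CPM in 3 or more libraries, Benjamini-Hochberg over all genes, threshold 0.05). The alternative with at least 1000 detected genes per cell used only 26 superficial-like cells of Cyto-ID High F6. Changes of low genes come out too small on this scale. Cyto-ID fits had no block in the main design. The replicate labels, from the sample titles, were taken to pair the libraries, since deviations from group means correlated at 0.762 (F2), 0.578 (M3) and 0.147 (F6) between same-labelled libraries and at -0.617 to 0.175 between others, with Cyto-ID Low F2 and Cyto-ID High F6 (0.175) above the F6 pair; blocked values stand beside the results they change. On simulated data for the comparison over all cells (11547 genes), limma recovered 49 of 100 genes changed 2-fold and 100 of 100 changed 4-fold, with 3 false calls. On simulated data for phases it recovered 200 of 200 changed genes, with 13 false calls. Both simulated phases of a library shared the same counts apart from the changes and a small added noise. That recovery was thus close to fixed in advance and does not measure power for the real phases. The simulated counts had a fixed spread and no replicate effects. The changed genes lay above the level of Slc11a2, Ireb2, Aco1 and Slc40a1. The recovery therefore need not hold for these members or for the real spread between libraries.

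Every member is named. Other iron genes are named where they passed a fit (at most 8 per fit, by p) or, for layers, where they were the 2 of a list with the largest median difference among those in 1 direction in 6 of 6 libraries. A few genes that these rules name are not reported here. Alternatives were the pseudocount, the gene filter, scaling, leaving out each library, the block, thinning, a minimum of 1000 genes, clustering resolution, iron genes kept among the clustering genes, all kept cells for phases and, added after seeing the data, removal of the shallow cluster led by interferon-induced genes.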

Additional observations from a re-analysis of the deposited data

Results flagged for a closer look

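On plain CPM only, Ireb2 moved in opposite directions between the upper layers of the Cyto-ID groups: it was higher in superficial-like than in suprabasal-like cells in 0 of 3 Cyto-ID Low and in 3 of 3 Cyto-ID High libraries. The values were 10.4, 7.41 and 1.93 CPM in superficial-like and 13.4, 7.86 and 9.12 CPM in suprabasal-like cells of Cyto-ID Low F2, M3 and F6. They were 13.6, 7.82 and 14.7 CPM against 12.7, 6.71 and 12.1 CPM in Cyto-ID High. On the scaled values it was higher in 5 of 6 libraries, so the opposition does not hold there. The values rest on 5 to 85 UMIs per library in superficial-like and 20 to 140 in suprabasal-like cells. The difference between the groups was not tested.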

How the results depend on the processing

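The differences of Fth1, Ftl1, Tfrc and Ncoa4 given with a test in the text, the ones followed here, kept their direction under every alternative except 4 values. Ftl1 over all cells was 0.157 without Cyto-ID Low M3 and 0.151 without Cyto-ID High F6 (-0.459 to 0.157 when each library was left out), Fth1 in basal-like cells was -0.246 without Cyto-ID High M3 (-0.246 to 0.408), and Ftl1 in S against G1 was 0.094 when all kept cells were used, so that the layers were mixed into the phases. For none of the 4 was the cause tested. All kept cells also gave -0.038 for Ftl1 in G2M, with no call. Counts of genes called between Cyto-ID groups depended on the fit. Over all cells, 14 genes became 5 with a pseudocount of 0.1 CPM, 0 with all genes tested, 26 on plain CPM, 25 after thinning and 70 with the replicate block, which also called 1 member, Tfrc. In basal-like cells, 27 became 0 with all genes, 14 with at least 1000 detected genes per cell and 124 with the block (1 member, Tfrc). In proliferating-like cells, 15 became 9 with the smaller pseudocount and 0 with all genes. In suprabasal-like cells, 36 became 3 with the smaller pseudocount, 0 with all genes, 18 with at least 1000 genes, 21 and 113 at resolutions of 0.3 and 1.0, and 424 with the block (1 member, Tfrc). In superficial-like cells, 2 became 0 with the smaller pseudocount, with all genes or with at least 1000 genes, and 1 without the highest Scrublet scores. The block changed no other call of a member. Leaving out each library gave 6 to 20 genes over all cells, 6 to 42 in basal-like, 4 to 50 in proliferating-like (0 to 1 members), 0 to 94 in suprabasal-like and 0 to 2 in superficial-like cells, 1572 to 2694 in G2M and 769 to 1206 in S (1 to 2 members in both). G2M gave 3837 genes with all kept cells and 2 members (Fth1, Ftl1) without the highest Scrublet scores. S gave 629 genes and 0 members with all genes tested, 580 with at least 1000 genes, and 3194 with 4 members with all kept cells. Libraries of 6 in which a member was higher in superficial-like than basal-like cells changed on plain CPM to 0 for Ftl1, Tfrc, Slc40a1 and Ireb2 and 1 for Ncoa4; with at least 1000 genes to 2 for Ftl1 and Ireb2 and 1 for Slc40a1; for Ireb2 to 2 at resolution 1.0 and with iron genes kept; and for Slc40a1 to 1 without the shallow cluster. Plain CPM moved the median of all genes by -0.141 in basal-like, -0.161 in proliferating-like and 0.136 in superficial-like cells and by 0.327 in the interaction. The shallow F6 libraries limit Slc40a1, Aco1, Ireb2 and Tfrc in superficial-like cells.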

Other observations

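Barcodes under 500 detected genes, 1654 in all, were left out of every comparison. Their mean Fth1 share was 13.2% in Cyto-ID Low F2, 14.8% in Cyto-ID Low M3 and 10.3% in Cyto-ID Low F6, against 3.61%, 1.97% and 1.87% in the kept cells of those libraries. In Cyto-ID High it was 5.46% in F2, 7.61% in M3 and 1.95% in F6, against 1.98%, 1.96% and 0.434%. The mean of the left-out barcodes was thus higher in all 6 libraries, but their median share was 9.76%, 8.13% and 0.394% in Cyto-ID Low and 0.980%, 0.472% and 0.144% in Cyto-ID High F2, M3 and F6, and between 10.2% and 67.7% of them had more than 5% of their UMIs in Fth1. Their median depth was 732 to 891 UMIs.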
